A study of Homo sapiens with 12 samples.

Results

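BON-1 cells sorted from the co-culture richest in CAFs were compared with BON-1 cells sorted from the co-culture poorest in them. BON-1 is an established human cell line from a pancreatic neuroendocrine tumour, and CAF usually stands for cancer-associated fibroblast. The groups were mixtures of 10 parts BON-1 to 6 parts CAFs (10:6) and 10 to 2 (10:2), with 3 libraries each, 6 of the 12 in the series. Both groups held the same line, were grown with CAFs and had their BON-1 cells taken out by flow cytometry before polyA RNA was sequenced, so they differ by label in the CAF share alone. The genes compared were the 12808 of 54261 in the table with an FPKM (fragments per kilobase of gene, scaled to the library's depth) of at least 1 in at least 3 of these 6 libraries. The remaining libraries, of BON-1 alone and of co-culture 10:4, served as reference levels and in the estimate of the spread.

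The labels give neither the origin of the CAFs, nor the marker used in the sort, nor its purity. They do not say that libraries came from separate cultures, so the p-values measure the spread between these libraries, which may be technical. In bulk RNA, more cells of a second type and more RNA per BON-1 cell cannot be told apart.

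Fibroblasts build the matrix of connective tissue. They secrete fibrillar collagens, fibronectin and matricellular proteins, and when activated they take on contractile fibres rich in smooth muscle actin. In tumours they signal to neighbouring cells through TGF-beta, IGF, IL-6 family and WNT ligands, through matrix stiffness that acts on integrins and YAP, and through contact. Neuroendocrine tumour cells are epithelial cells that store peptide hormones and granins in dense-core granules.

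Depth was 11703624 to 13519681 assigned reads at 10:2 and 13516898 to 15327524 at 10:6. Within a group, pairs of libraries differed by more than counting noise, with a chi-square per degree of freedom of 1.76 to 2.88 over genes with at least 50 reads. Markers of BON-1 stood high in both groups: KRT8 lay between 2056 and 2204 FPKM, KRT18 between 1384 and 1492, and EPCAM between 332.0 and 374.4. Defining fibroblast markers differed in level. COL1A1, COL1A2 and COL3A1 reached 54.97, 31.6 and 14.6 FPKM at 10:6 and THY1 2.73, while DCN, LUM and FAP were at most 0.404, 0.604 and 0.177. The mean of DCN was 0.0442 at 10:2 and 0.334 at 10:6, that of LUM 0.308 and 0.533, and that of FAP 0.0220 and 0.0966, all below the filter and not tested. The leukocyte marker PTPRC was at 0 in all 3 libraries of 10:2 and at most 0.0273 at 10:6, and the endothelial marker PECAM1 was at most 0.0975.

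From 10:2 to 10:6 the protein-coding genes that rose most by fold were mainly those of fibroblast matrix and contraction. COL1A1, COL1A2 and COL3A1, chains of the fibrillar collagens of connective tissue, rose 3.02-fold, 3.42-fold and 3.98-fold in mean FPKM. ACTA2, smooth muscle actin, rose 3.48-fold and SPARC, a collagen-binding matricellular protein, 3.46-fold. Apart from such genes the differences were small: of 617 genes that rose, 557 had a log2 difference under 0.50, and of 349 that fell, 337 had one above -0.50. Differences are of log2(FPKM + 1), 10:6 minus 10:2, and understate the change of genes with low levels.

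A gene is called where its adjusted p in limma was under 0.05. The 617 rises were 4.82% of the genes tested, the 349 falls 2.72%, and all 966 calls 7.54%. The median log2 difference over all genes was 0.02. The libraries of the 2 groups did not overlap in 2302 genes that were higher at 10:6 (18.0%) and 1477 that were lower (11.5%), called or not. Of the 26 genes called with at least a 2-fold difference, 21 rose (0.164%) and 5 fell (0.039%). The 12 protein-coding genes among these all rose: COL1A1, COL1A2, COL3A1, COL5A1, COL6A3, ACTA2, TAGLN, MYL9, SPARC, IGFBP7, FSTL1 and DKK3. The other 14 were genes of small RNAs with at most 18 reads in any of the 6 libraries. Some called genes of low level missed this cut despite larger folds in mean FPKM, such as THY1 (3.15-fold) and MCAM (3.29-fold).

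**Figure D1:**
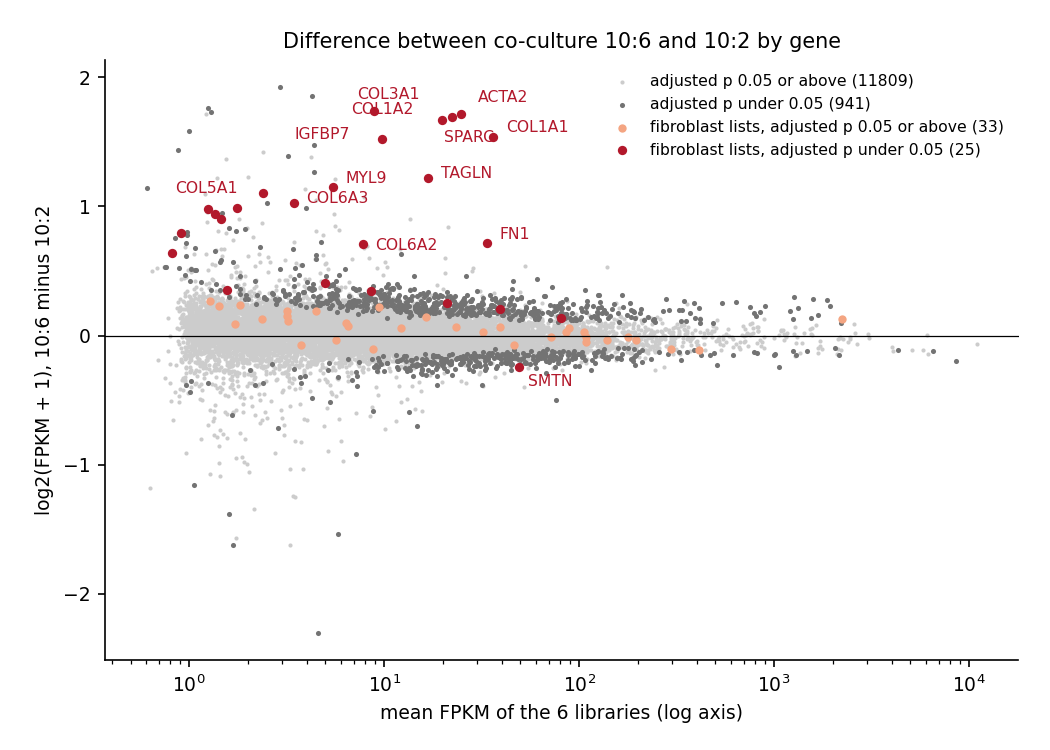
Difference between the groups (vertical axis, log2 of FPKM + 1, 10:6 minus 10:2) against the mean FPKM of the 6 libraries (horizontal log axis), 1 point per gene, with genes of the 4 fibroblast lists in colour. COL1A1, COL1A2, COL3A1, COL5A1, SPARC, ACTA2, IGFBP7, TAGLN and MYL9 stand above 1, while most called genes lie close to 0.

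How many genes were called depended on single libraries. Without replicate 3 of 10:6 the calls were 134 up and 86 down, without replicate 2 of 10:2 they were 195 and 82, and without replicate 2 of 10:6 they were 202 and 123. Without replicate 1 of 10:2 they were 411 and 207. A fit of the 6 libraries alone called 199 up (1.55%) and 99 down (0.773%), 2.33% in all, and limma-voom on whole reads recovered from the FPKM called 1045 up (8.16%) and 520 down (4.06%), 12.2% in all. Of all calls, 132 rises and 60 falls passed without each library in turn, in every such fit that tested them.

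Calls also tracked transcript GC content. With genes ranked by it and cut into 5 equal bins, 9.72% of the lowest bin rose and 0.0415% fell, against 1.37% and 7.06% of the highest bin. The log2 difference fell with GC content, Spearman's rho -0.493 across 12033 genes, which are not independent replicates. When trends on length and GC content were removed from each library, 209 genes were called up (1.74%) and 243 down (2.02%), or 3.76% in all, of which 174 and 158 were calls in the same direction as before. The excess of rises also turned with median-of-ratios rescaling, to 434 up and 573 down, and shrank with quantile normalization to 509 and 471. The part of GC content in any single call below was not tested.

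**Figure D2:**
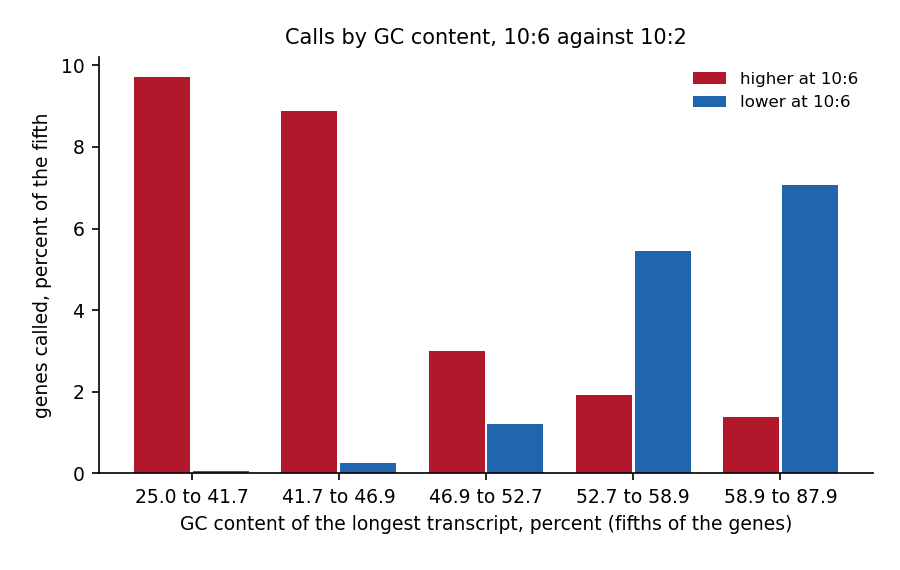
Share of genes called (vertical axis, percent) in 5 equal bins of the genes by GC content of the longest transcript (horizontal axis), higher at 10:6 in red and lower in blue. Rises take 9.72% of the lowest bin and 1.37% of the highest, and falls take 0.0415% and 7.06%.

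Across 4 lists of fibroblast genes, 58 were tested, 24 rose and 1 fell, beside shares of 4.82% up and 2.72% down over all genes. Their median difference was 0.17 against 0.02 over all genes. Among the rises, COL5A2, THBS2, THY1, PDGFRB and CNN1 passed the filter only through the libraries of 10:6. The means of 23 of the 24 rose in the order 10:2, 10:4, 10:6, and CALD1 was highest at 10:4. The mean at 10:2 was above that of BON-1 alone in all 24. These lists were chosen with earlier results of the data known, so their counts are a description.

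Fibrillar collagens are triple-helical chains that assemble into the fibres of skin, bone and tumour stroma. Of 6 tested chains, 5 rose (83.3%, beside 4.82% of all genes) and none fell, with a median of 1.32. The tested chain without a call was COL27A1. COL1A1 was at 17.9, 18.4 and 17.9 FPKM in the 3 libraries of 10:2 and at 53.5, 54.97 and 54.8 at 10:6. COL1A2, its partner in type I collagen, went from 9.08, 9.405 and 8.54 to 30.8, 31.6 and 29.99. COL3A1, the type III chain of elastic and healing tissue, was at 3.21, 3.54 and 3.93 and 13.8, 14.1 and 14.6. No library of 10:6 came near any of 10:2 for these genes, and the spread inside a group was a small part of the gap. The log2 differences were 1.54 ± 0.0343 (SE) for COL1A1, 1.67 ± 0.0674 for COL1A2 and 1.74 ± 0.0645 for COL3A1, with limma adjusted p of 1.92e-10, 4.06e-08 and 1.91e-08.

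Type V collagen, which nucleates type I fibres, rose at a lower level. COL5A1 went from 1.11, 1.26 and 1.08 to 3.44, 3.69 and 3.74 FPKM and COL5A2 from 0.555, 0.768 and 0.841 to 2.103, 2.17 and 2.34, with adjusted p of 5.67e-06 and 0.000101. The groups did not overlap for either chain, which for COL5A2 follows from the filter. All 5 calls held with the trends removed and without each library in turn, where COL5A2 was tested in 3 of the 6 fits. In GRCh38.p14 COL3A1 lies at chr2:188974373-189012746 and COL5A2 beside it at chr2:189031898-189441111, with COL1A1 on chromosome 17 and COL1A2 on chromosome 7. The other listed chains, COL2A1, COL5A3, COL11A1, COL11A2 and COL24A1, did not reach the filter, and COL5A3 was at most 0.388 FPKM at 10:2 and 0.890 at 10:6. The summed FPKM of the 6 tested chains was 37.7 to 38.7 at 10:2 and 109.3 to 112.0 at 10:6, beside 21.0 to 22.0 in BON-1 alone and 73.0 to 75.6 at 10:4.

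The collagens stood above BON-1 alone at every ratio. COL1A1 stood 8.82 FPKM above its mean in BON-1 alone at 10:2, 28.2 at 10:4 and 45.2 at 10:6. For COL1A2 these excesses were 4.93, 14.9 and 26.7, and for COL3A1 1.97, 7.01 and 12.6. The CAF parts in these cultures were 2, 4 and 6 for 10 of BON-1. Whether the RNA came from CAFs carried through the sort or from BON-1 cells was not tested.

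**Figure D3:**
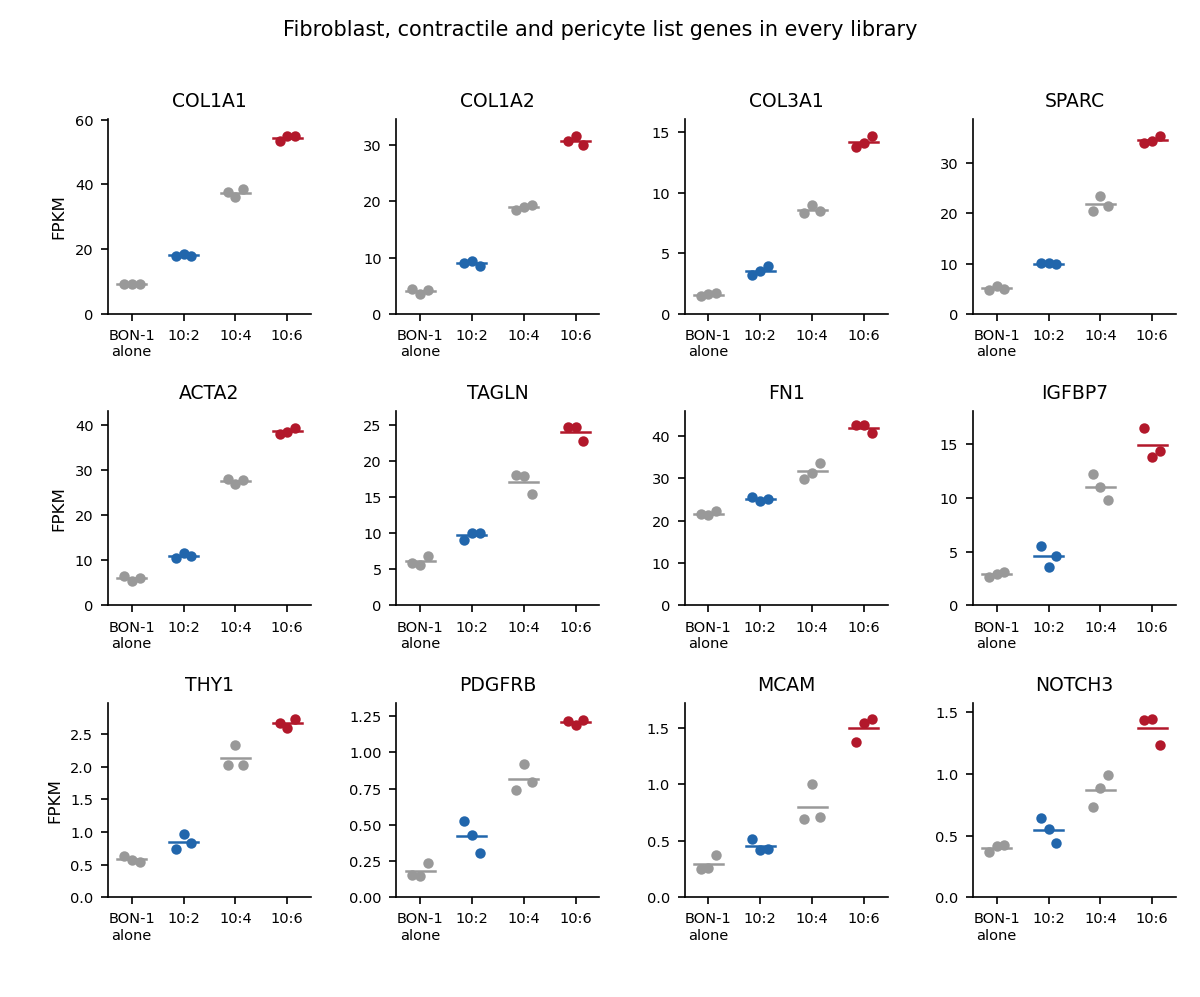
FPKM (vertical axes, from 0) of 12 genes in each of the 12 libraries by group (horizontal axes), with points for libraries and a line for the mean of 3. For every gene shown, the libraries of 10:6 in red lie above those of 10:2 in blue, and the means climb from BON-1 alone through 10:2 and 10:4 to 10:6. That the groups of THY1, PDGFRB, MCAM and NOTCH3 do not overlap follows from the filter.

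Other matrix genes of fibroblasts rose in 4 of 11 cases (36.4%, beside 4.82% of all genes) and fell in none (median 0.13). FN1, fibronectin, the adhesive glycoprotein that integrins bind, was at 25.7, 24.6 and 25.2 FPKM at 10:2 and 42.6, 42.7 and 40.6 at 10:6. Its difference was 0.72 ± 0.0441, adjusted p = 3.19e-06, from a level that was already 21.7 ± 0.589 (SD, n = 3) in BON-1 alone. COL6A2 and COL6A3, chains of the beaded type VI filaments, rose by 0.71 and 1.03, with COL6A3 at 2.25, 1.75 and 1.77 and 4.89, 5.06 and 4.87. FBLN2, a matrix linker protein, rose by 0.35 (adjusted p = 0.0354), and this call ended without any of the 10:2 libraries and without replicate 2 or 3 of 10:6. All 4 rises were also called with the trends removed.

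Surface and matricellular genes of fibroblasts rose in 7 of 16 cases (43.8%, beside 4.82% of all genes) and fell in none (median 0.22). With the trends removed 8 rose and 1 fell. SPARC was at 10.04, 10.03 and 9.88 FPKM at 10:2 and 33.96, 34.4 and 35.4 at 10:6, with no overlap. Its difference was 1.69 ± 0.0592, adjusted p = 1.25e-08. IGFBP7, a secreted binding protein of the insulin-like growth factors, was at 5.52, 3.603 and 4.56 and 16.5, 13.8 and 14.3, wider within groups but with no overlap (1.52 ± 0.117, adjusted p = 2.37e-05). THBS2, thrombospondin 2, went from 0.552, 0.503 and 0.489 to 1.95, 2.13 and 1.88, and passed the filter only through the libraries of 10:6.

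Receptors and anchors on the fibroblast surface rose from levels below 1 FPKM. THY1 and PDGFRB passed the filter only through the libraries of 10:6. THY1, a glycolipid-anchored protein used to mark fibroblasts, was at 0.742, 0.964 and 0.834 at 10:2 and 2.67, 2.59 and 2.73 at 10:6, adjusted p = 2.35e-05. PDGFRB, a platelet-derived growth factor receptor, was at 0.524, 0.4299 and 0.305 and 1.22, 1.19 and 1.23, adjusted p = 0.00266. PDGFRA, the related receptor, was at 2.91, 2.996 and 2.82 and 3.68, 3.25 and 3.46 and was not called (adjusted p = 0.143). PDGFRA already stood at 2.44 ± 0.148 (SD, n = 3) in BON-1 alone, while PDGFRB stood at 0.1797 ± 0.0501. CTGF, a matricellular target of TGF-beta and YAP, rose by 0.25 (adjusted p = 0.0113), which a fit of the 6 libraries alone did not call (0.0505).

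Contractile genes rose in 9 of 26 cases (34.6%) and fell in 1 (3.85%), beside 4.82% and 2.72% of all genes (median 0.08). ACTA2 was at 10.6, 11.6 and 11.01 FPKM at 10:2 and 37.9, 38.3 and 39.3 at 10:6, a difference of 1.71 ± 0.0538 with adjusted p = 5.35e-09. TAGLN, which binds actin in smooth muscle and myofibroblasts, went from 9.05, 10.02 and 10.1 to 24.7, 24.6 and 22.7. MYL9, a regulatory light chain of myosin, went from 2.71, 3.21 and 3.16 to 8.16, 7.52 and 8.12. Every library of 10:6 was above every library of 10:2 for these 3 genes, and the gap was many times the spread within a group.

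CNN1, calponin of smooth muscle, and ACTG2, the enteric smooth muscle actin, rose from low levels. CNN1 was at 0.358, 0.349 and 0.476 and 1.63, 1.54 and 1.12, and ACTG2 at 0.321, 0.556 and 1.02 and 2.001, 2.304 and 1.97, with as few as 8 and 5 reads in a library of 10:2. CNN1 passed the filter only through the libraries of 10:6. ACTG2 is close in sequence to ACTA2, so reads could have been shared between them. CNN3 rose by 0.34 and CALD1, caldesmon, by 0.40. The tropomyosins TPM1 and TPM4, which BON-1 cells held at 66.9 ± 2.49 and 30.8 ± 0.891 FPKM (SD, n = 3) when grown alone, rose by 0.13 and 0.21. The call of TPM1 ended with the trends removed (adjusted p = 0.259) and without any 10:2 library or replicate 2 or 3 of 10:6, and that of TPM4 without replicate 2 of 10:2 or replicate 3 of 10:6. SMTN, smoothelin, fell from 51.7, 55.00 and 54.1 to 45.02, 45.6 and 44.8, adjusted p = 0.00119.

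Outside the 4 lists, large protein-coding rises were those of FSTL1, DKK3, SPON2 and SDHAF4. FSTL1, a secreted follistatin-like glycoprotein, went from 1.76, 1.23 and 1.06 to 5.16, 5.03 and 5.12 FPKM (1.39 ± 0.108, adjusted p = 2.62e-05). DKK3, a secreted protein of the Dickkopf family, went from 0.898, 1.39 and 1.67 to 4.26, 3.66 and 3.19, and SPON2, a matrix protein of the spondin family, from 2.49, 1.61 and 2.98 to 6.16, 4.98 and 5.58. SDHAF4, an assembly factor of mitochondrial complex II, went from 3.25, 3.804 and 2.88 to 6.06, 7.08 and 5.27. The groups did not overlap for any of the 4, which the naming rule required of FSTL1, SPON2 and SDHAF4. Each of the 4 calls held with the trends removed and without each library in turn.

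The 200 bases before the start sites of ACTA2 and FN1 are shown because these genes lead the contractile and the adhesive matrix rises and RefSeq holds their promoters. Sequences are from GRCh38.p14, minus strand, written 5′ to 3′ up to the base before the start: ACTA2 (downstream start) at chr10:88952774-88952973 and FN1 at chr2:215436069-215436268. Capitals mark matches to CArG boxes, which serum response factor binds, with at most 1 of the 6 core bases not A or T, and to TATATAA and CCAAT.
ACTA2: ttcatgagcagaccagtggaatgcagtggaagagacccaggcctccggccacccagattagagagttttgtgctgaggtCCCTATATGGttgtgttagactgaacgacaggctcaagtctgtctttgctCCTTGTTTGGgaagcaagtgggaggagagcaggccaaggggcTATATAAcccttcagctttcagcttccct
FN1: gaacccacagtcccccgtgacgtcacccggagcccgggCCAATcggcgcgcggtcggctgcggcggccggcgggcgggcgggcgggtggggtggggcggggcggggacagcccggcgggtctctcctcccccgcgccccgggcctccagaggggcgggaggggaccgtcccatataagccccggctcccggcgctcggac
ACTA2 held 2 such CArG matches, CCCTATATGG at -121 to -112 and CCTTGTTTGG at -71 to -62 from the start, and TATATAA at -29 to -23. FN1 held CCAAT at -162 to -158. Searched on both strands in windows of the same length, the relaxed CArG box was found in 5.66% of 35116 promoters, TATATAA in 1.93% and CCAAT in 28.0%. In the 13619 promoters of genes tested these shares were 5.01%, 0.991% and 29.5%. A CArG box with the full A and T core was in 0.982% of the 35116, 0.896% of the 13619 and neither window shown. The window before the upstream ACTA2 start, at chr10:88991338-88991537, held none of the motifs, and the relaxed CArG box was in 1 of the 9 windows found for the named rises. A match describes letters in the window and no binding.

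Of the 3 lists of other cells that a sort could hold, the pericyte list alone had called genes. Of 8 pericyte genes, 3 were tested and 2 rose: MCAM, an adhesion molecule of vessel walls and melanoma, from 0.513, 0.422 and 0.431 to 1.38, 1.55 and 1.58 FPKM, and NOTCH3 from 0.646, 0.5499 and 0.441 to 1.44, 1.45 and 1.23. Both genes passed the filter only through the libraries of 10:6. Their groups therefore could not overlap, and their calls cannot set the pericyte list apart from the others. Their limma adjusted p were 0.0011 and 0.00353. RGS5, a defining pericyte marker, was at most 0.306 at 10:2 and 0.358 at 10:6. Fibroblasts can express MCAM and NOTCH3 as well. Of 16 leukocyte genes, 2 were tested and none was called, CD68 with 5.34, 6.38 and 6.68 at 10:2 and 7.81, 6.57 and 7.72 at 10:6 (adjusted p = 0.174). Of 13 endothelial genes, 5 were tested and none was called, including CDH5, whose level of 27.9 ± 1.197 (SD, n = 3) at 10:2 lay beside 28.8 ± 0.604 in BON-1 alone.

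**Figure D4:**
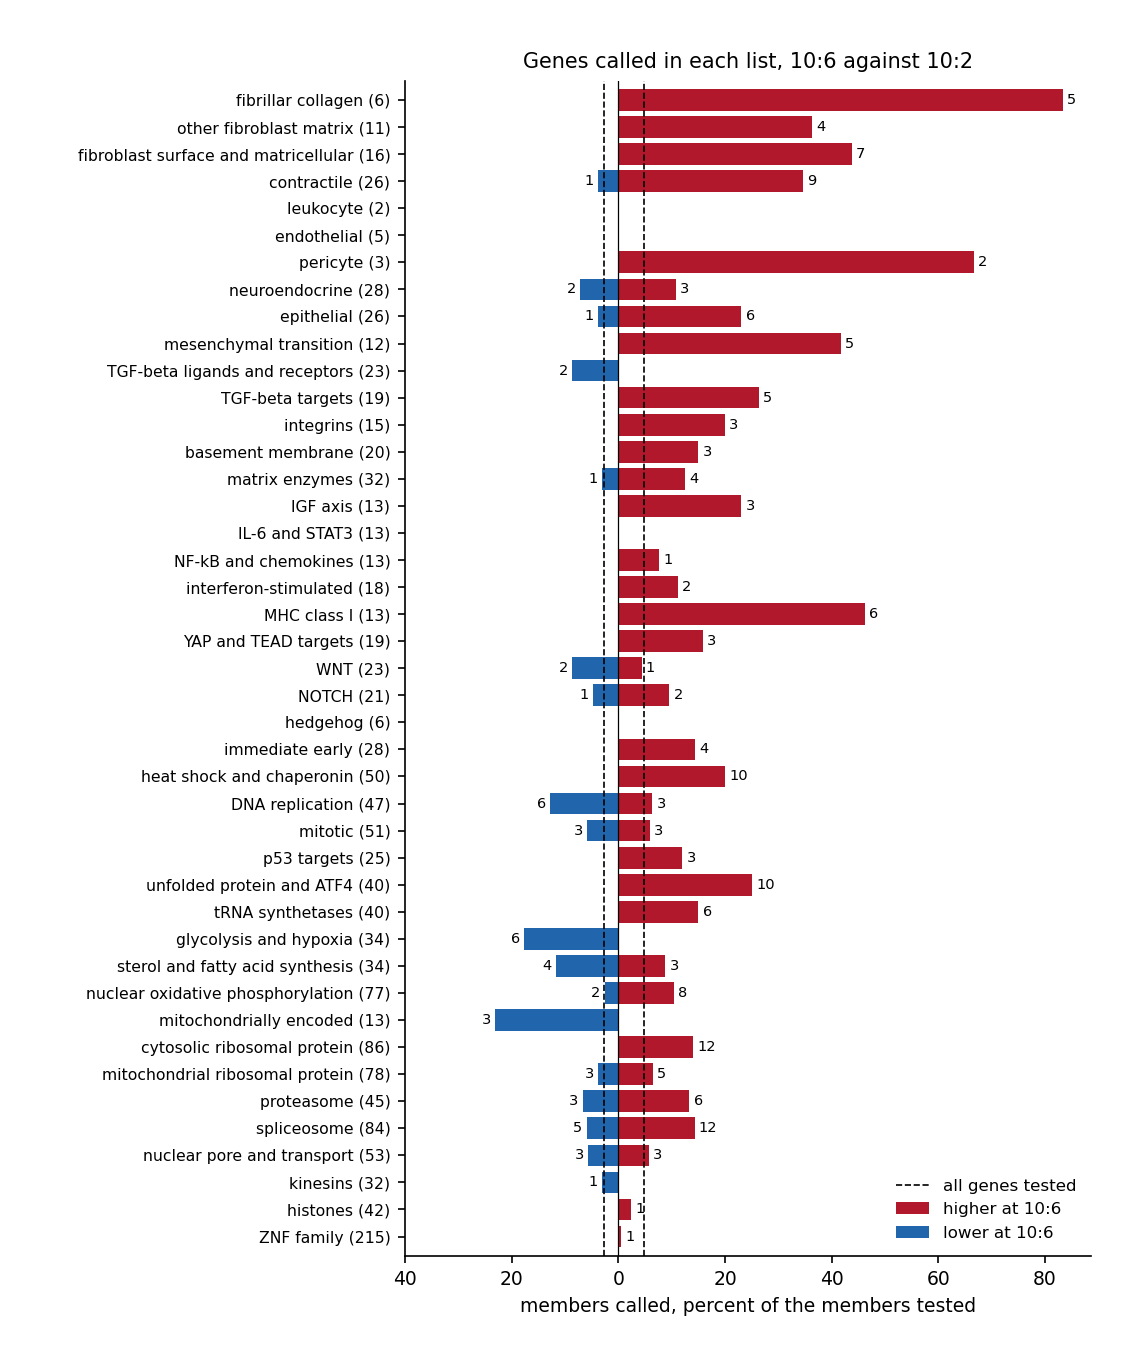
Share of tested members called in each of 43 gene lists (horizontal axis, percent; number tested in brackets), with rises to the right in red and falls to the left in blue and the number called at each bar. Dashed lines mark the shares over all genes tested, 4.82% and 2.72%, which the fibroblast lists, among others, pass on the right and the glycolysis list, among others, on the left.

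Of 32 tested enzymes that shape the matrix, 4 rose (12.5%) and 1 fell (3.12%), beside 4.82% and 2.72% of all genes (median 0.11). LOXL2, a lysyl oxidase that crosslinks collagen, was at 2.83, 2.19 and 2.22 FPKM at 10:2 and 4.52, 4.37 and 4.39 at 10:6, adjusted p = 0.000716. ADAMTS2, which trims procollagen, went from 0.493, 0.427 and 0.381 to 1.095, 1.101 and 1.01, and MMP14, a membrane-bound collagenase, from 13.8, 13.6 and 14.6 to 17.1, 18.5 and 17.9. No library of 10:6 overlapped those of 10:2 in these 3 genes, which for ADAMTS2 follows from the filter. LOXL1 also rose by 0.30 (adjusted p = 0.0454), a call that ended without any 1 of the 6 libraries. PLOD3, a lysyl hydroxylase well expressed in BON-1, fell from 79.99, 80.8 and 80.1 to 71.99, 70.4 and 71.97. All 5 calls were also made with the trends removed.

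Integrins, the receptors for matrix, rose in 3 of 15 cases (20%, beside 4.82% of all genes), with a median of 0.14. With the trends removed 2 rose. ITGA5, the fibronectin receptor chain, went from 0.965, 0.957 and 0.979 to 2.04, 1.92 and 1.92 FPKM, and in the 3 fits without a library that still tested it the call ended without replicate 2 of 10:2. ITGA6 and ITGA2, laminin and collagen receptor chains, rose by 0.24 and 0.28. Neither was called with the trends removed (adjusted p = 0.109 and 0.206); ITGA2 was lost without any 1 library, and ITGA6 without replicate 2 or 3 of either group.

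Basement membrane genes rose in 3 of 20 cases (15%, beside 4.82% of all genes) and fell in none, with a median of 0.05. COL4A1, a network-forming collagen, was at 8.896, 8.31 and 8.402 at 10:2 and 10.96, 10.8 and 10.2 at 10:6 (adjusted p = 0.011). SDC2, a heparan sulphate proteoglycan, rose by 0.37, and lost its call without replicate 3 of 10:6. LAMB1, a laminin chain, rose by 0.17, and lost its call without any 1 library. With the trends removed 6 members were called up, among them these 3.

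Of 13 IGF axis genes, IGFBP7, IGFBP5 and IGFBP4 rose (23.1%, beside 4.82% of all genes) and none fell, with a median of 0.04; with the trends removed 4 rose. IGFBP5 went from 1.08, 1.03 and 1.03 to 1.81, 1.55 and 1.74 FPKM and IGFBP4 from 9.44, 7.11 and 6.19 to 9.86, 10.3 and 9.99; both bind and hold insulin-like growth factors. The call of IGFBP5 ended without replicate 3 of 10:6, and that of IGFBP4 in each leave-out but that of replicate 1 of 10:2.

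Of 23 TGF-beta ligands and receptors none rose, and BMP4 and INHBB fell (8.7%, beside 2.72% of all genes). BMP4, a bone morphogenetic protein, went from 14.2, 14.1 and 13.5 to 12.3, 12.5 and 11.4 FPKM and INHBB, an activin subunit, from 44.3, 43.97 and 45.5 to 40.6, 38.97 and 39.1. BMP4 lost its call without replicate 1 or 2 of 10:2 or replicate 3 of 10:6, and INHBB without any 1 library and with the trends removed (adjusted p = 0.13). Of 19 TGF-beta targets 5 rose (26.3%, beside 4.82% of all genes) and none fell, with a median of 0.10. TGFBI, a matrix protein induced by TGF-beta, was at 52.1, 51.3 and 51.4 at 10:2 and 72.3, 68.8 and 70.2 at 10:6, and BHLHE40, a transcription repressor, went from 11.9, 12.1 and 11.3 to 15.8, 15.3 and 14.8. Libraries of the groups did not overlap in TGFBI (0.44 ± 0.0306, adjusted p = 9.54e-06) or in BHLHE40 (0.35 ± 0.0464, 0.00208). The other targets called were COL1A1, CTGF and TGIF1; TGIF1 was not called with the trends removed (adjusted p = 0.347) and kept its call in 1 leave-out, that of replicate 1 of 10:2.

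Genes of mesenchymal transition rose in 5 of 12 cases (41.7%, beside 4.82% of all genes) and fell in none (median 0.16). The 5 were FN1, TGFBI, MMP14, ITGA5 and VIM, of which the first 4 are described above. VIM, the intermediate filament vimentin, was at 75.3, 77.01 and 76.1 FPKM at 10:2 and 85.3, 82.2 and 82.4 at 10:6, a difference of 0.13. It was not called with the trends removed (adjusted p = 0.194), without replicate 1 of 10:2 or without replicate 3 of 10:6. BON-1 cells grown alone held VIM at 76.4 ± 1.17 FPKM (SD, n = 3).

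Genes that mark BON-1 as a neuroendocrine line moved by small amounts and in both directions. Of 28 tested, 3 rose (10.7%) and 2 fell (7.14%), beside 4.82% and 2.72% of all genes, with a median of 0.01. CHGA, chromogranin A, was at 1159, 1175 and 1128 FPKM at 10:2 and 1019, 961 and 945 at 10:6, a difference of -0.24 ± 0.0318 (adjusted p = 0.002). SCG2, secretogranin II, was at 1149, 1097 and 1164 and 1398, 1394 and 1409, a difference of 0.30 ± 0.0301 (adjusted p = 0.000297). The 3 libraries of each group stood apart for both granins, CHGA lower and SCG2 higher at 10:6. CHGB, the related chromogranin B, was at 254, 257 and 258 and 284, 269.7 and 269 and was not called (adjusted p = 0.0548), although it passed with the trends removed (0.0284).

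The other neuroendocrine calls were less firm. PCSK1, a prohormone convertase, rose by 0.19, and UCHL1, a neuronal ubiquitin hydrolase, went from 1.67, 0.7897 and 0.606 to 2.17, 2.61 and 2.59 FPKM. NKX2-2, an islet transcription factor, fell from 19.5, 16.8 and 18.8 to 15.6, 14.6 and 15.04. With the trends removed none of the 3 was called (adjusted p = 0.303, 0.0557 and 0.0669). Leaving out any 1 library ended the call of PCSK1, any but replicate 1 of 10:2 that of UCHL1, and replicate 1 or 3 of 10:2 or replicate 2 or 3 of 10:6 that of NKX2-2.

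Epithelial genes rose in 6 of 26 cases (23.1%) and fell in 1 (3.85%), beside 4.82% and 2.72% of all genes (median 0.02). DSG2, a desmosomal cadherin, was at 10.5, 10.2 and 10.7 FPKM at 10:2 and 12.7, 13.5 and 13.4 at 10:6, and ELF3, an epithelial transcription factor, at 21.97, 23.8 and 22.7 and 27.9, 26.9 and 27.8. These 2 rises held with the trends removed and without each library in turn. CDH1, E-cadherin, went from 79.8, 77.1 and 78.3 to 85.5, 86.4 and 86.00 FPKM, and was called with the trends removed but not without replicate 2 or 3 of 10:2 or any library of 10:6. EPCAM, ESRP1 and TJP1 rose by 0.11, 0.21 and 0.24, and CLDN4, a tight junction claudin, fell by 0.13. None of these 4 was called with the trends removed (adjusted p = 0.221, 0.247, 0.0801 and 0.095), and each lost its call without replicate 2 of 10:2 and without replicate 2 or 3 of 10:6, among other leave-outs.

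**Figure D5:**
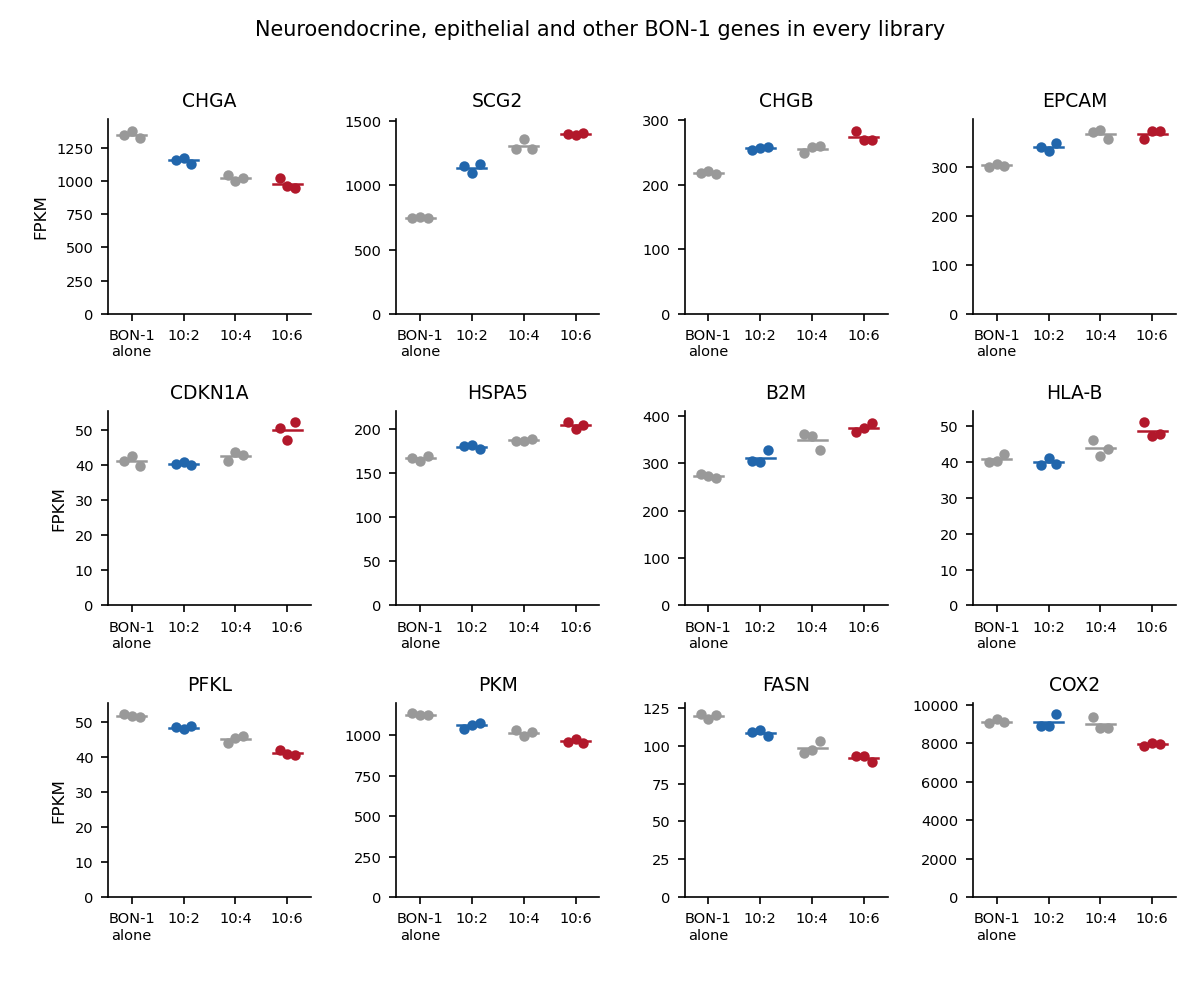
FPKM (vertical axes, from 0) of 12 genes expressed by BON-1 in each of the 12 libraries by group (horizontal axes), with points for libraries and a line for the mean of 3. The steps between 10:2 in blue and 10:6 in red are small beside the level of each gene; SCG2 steps up, and CHGA, PFKL, PKM and FASN step down.

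Antigen presentation by MHC class I showed 6 rises among 13 genes (46.2%, beside 4.82% of all genes) and no fall (median 0.08). B2M, the light chain shared by class I molecules, was at 304, 303 and 329 FPKM at 10:2 and 367, 374 and 385 at 10:6. HLA-B went from 39.2, 40.9 and 39.3 to 50.9, 47.3 and 47.6 and CANX, calnexin, a chaperone of nascent class I chains, from 114, 108 and 116 to 136, 145 and 142. The groups did not overlap for these 3 genes, which held without each library in turn, and B2M alone of them was not called with the trends removed (adjusted p = 0.0516). HLA-C and HLA-E rose by 0.12 and 0.18, and PDIA3 by 0.13; PDIA3 was not called with the trends removed (0.592). HLA-C and HLA-E were both lost without replicate 1 of 10:2 or any library of 10:6, and PDIA3 without replicate 1 or 2 of 10:2 or replicate 2 or 3 of 10:6. Class I genes are near-identical in parts, so reads could be shared among them.

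Of 18 interferon-stimulated genes 2 rose (11.1%, beside 4.82% of all genes) and none fell, with a median of 0.10, and with the trends removed 1 was called up. IRF9, a transcription factor of the pathway, rose by 0.30, and lost its call in each leave-out but that of replicate 2 of 10:2. Of 13 IL-6 and STAT3 genes none was called. Of 13 NF-kB and chemokine genes 1 rose (7.69%, beside 4.82% of all genes) and none fell, against 1 and 1 with the trends removed. IER3, an early response survival gene, rose from 39.97, 40.3 and 37.7 to 43.9, 46.6 and 44.9 FPKM (adjusted p = 0.00916), which a fit of the 6 libraries alone did not call (0.0538).

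Of 19 YAP and TEAD genes CTGF, TEAD1 and WWTR1 rose (15.8%, beside 4.82% of all genes) and none fell, with a median of 0.09. TEAD1, the DNA-binding partner of YAP, rose by 0.27 and WWTR1, the YAP paralogue TAZ, by 0.22; both were lost with the trends removed (adjusted p = 0.127 and 0.372) and without any 1 library. Of 23 WNT genes 1 rose (4.35%) and 2 fell (8.7%), beside 4.82% and 2.72% of all genes. DKK3 rose, and WNT7B, a ligand, fell from 12.6, 13.3 and 12.9 to 10.96, 10.6 and 10.4 FPKM (adjusted p = 0.00902). LRP5, a WNT co-receptor, fell by 0.16, and lost its call with the trends removed (0.0567) and without replicate 1 or 2 of 10:2 or 1 or 3 of 10:6.

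Of 21 NOTCH genes NOTCH3 and NRARP rose (9.52%) and JAG2 fell (4.76%), beside 4.82% and 2.72% of all genes, with a median of 0.05. NRARP, a feedback inhibitor induced by NOTCH, went from 12.9, 12.2 and 11.8 to 16.8, 15.9 and 15.6 FPKM, and lost its call in each leave-out but that of replicate 1 of 10:2. JAG2, a ligand, fell by 0.17, and lost its call with the trends removed (adjusted p = 0.0684) and in each leave-out but that of replicate 3 of 10:2. Of 6 hedgehog genes none was called. IHH, a ligand, was at 40.4, 43.1 and 37.2 at 10:2 and 34.4, 35.4 and 38.7 at 10:6 with overlapping groups (adjusted p = 0.104).

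Immediate early genes rose in 4 of 28 cases (14.3%, beside 4.82% of all genes) and fell in none, with a median of 0.08. EGR1, a zinc finger factor induced by growth signals, was at 81.8, 77.8 and 71.6 FPKM at 10:2 and 92.4, 95.2 and 94.4 at 10:6, and BTG2, an antiproliferative gene, at 33.05, 32.6 and 31.2 and 39.9, 38.9 and 39.7. IER3 and BTG1 were the other rises, and BTG1 was lost with the trends removed (adjusted p = 0.441) and without replicate 2 of 10:2 or 2 or 3 of 10:6. Of 25 p53 targets 3 rose (12%, beside 4.82% of all genes) and none fell, with a median of 0.12. CDKN1A, the cell cycle inhibitor p21, was at 40.2, 40.6 and 39.97 at 10:2 and 50.4, 47.1 and 52.04 at 10:6 (0.30 ± 0.0408, adjusted p = 0.00254). The libraries of the groups did not overlap, and the call held with the trends removed and without each library in turn, as it did for BTG2 and EGR1. PLK2, a stress-induced kinase, rose by 0.14, and lost its call with the trends removed (0.0673) and without replicate 2 of 10:2 or 2 or 3 of 10:6.

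Genes of the endoplasmic reticulum and of amino acid stress gave rises and no falls, all in small steps. Of 40 genes of the unfolded protein and ATF4 responses 10 rose (25%, beside 4.82% of all genes) and none fell (median 0.10). HSPA5, the chaperone BiP, was at 181, 181 and 178 FPKM at 10:2 and 208, 199.97 and 204 at 10:6, and ASNS, asparagine synthetase, at 122, 127 and 127 and 145, 142 and 144. XBP1, a transcription factor of the unfolded protein response, went from 169.7, 170.5 and 179 to 201, 198 and 195, and DNAJB11, a co-chaperone of BiP, from 73.6, 70.8 and 73.6 to 87.9, 85.8 and 85.8. All 4 held without each library in turn, but XBP1 and DNAJB11 were not called with the trends removed (adjusted p = 0.184 and 0.105). With the trends removed 4 of the 10 kept their call: HSPA5, ASNS, NARS and DDIT4.

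Of 40 tRNA synthetases 6 rose (15%, beside 4.82% of all genes) and none fell, while the median was 0.00. TARS, for threonine, went from 74.2, 69.6 and 77.8 to 90.8, 87.5 and 87.6 FPKM and LARS, for leucine, from 12.2, 12.3 and 12.6 to 15.1, 15.5 and 16.1. LARS was not called with the trends removed (adjusted p = 0.0567), where 3 of the 6 kept their call: TARS, NARS and GARS. Of 50 heat shock and chaperonin genes 10 rose (20%, beside 4.82% of all genes) and none fell, with a median of 0.03. With the trends removed 2 of the 10 kept their call, and 2 others of the list fell. Without each library in turn 2 of the 10 held. HSP90B1, the chaperone of the endoplasmic reticulum GRP94, and HSPA9, the mitochondrial mortalin, rose by 0.18 and 0.15. Neither held with the trends removed (adjusted p = 0.312 and 0.457) or without replicate 1 or 2 of 10:2 or 2 or 3 of 10:6.

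Of 47 DNA replication genes 3 rose (6.38%) and 6 fell (12.8%), beside 4.82% and 2.72% of all genes, with a median of 0.02; with the trends removed 0 rose and 4 fell. MCM2, a subunit of the replicative helicase, fell from 74.1, 75.7 and 74.4 to 67.7, 64.8 and 61.9 FPKM (adjusted p = 0.00919), the only one of the 9 to hold without each library in turn. POLD1, POLD2 and POLE, subunits of the replicative polymerases, fell by 0.21, 0.20 and 0.19, and were called with the trends removed as was MCM2. POLD1 was lost without replicate 2 of 10:2 or 3 of 10:6, POLD2 without replicate 3 of 10:6, and POLE without any 1 library. The rises were in PRIM1, PRIM2 and RRM1, none of which was called with the trends removed (adjusted p = 0.354, 0.402 and 0.29).

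Of 51 mitotic genes 3 rose and 3 fell, 5.88% each way, beside 4.82% and 2.72% of all genes, with a median of 0.00. BUB1B, a spindle checkpoint kinase, NUSAP1 and TPX2, spindle proteins, rose by 0.24, 0.29 and 0.12. PLK1 and AURKB, mitotic kinases, and CDC25B, a phosphatase that starts mitosis, fell by 0.15, 0.12 and 0.11. None of the 6 held without each library in turn, replicate 2 of 10:2 and replicate 3 of 10:6 being needed by all of them, and AURKB alone kept its call with the trends removed. Of 32 kinesins none rose and KIF22 fell by 0.13 (3.12% of the list, beside 2.72% of all genes). Its call ended with the trends removed (adjusted p = 0.12) and in each leave-out but that of replicate 1 of 10:6.

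Glycolysis and hypoxia genes fell in 6 of 34 cases (17.6%, beside 2.72% of all genes) and rose in none. Their median was -0.02 against 0.02 over all genes. PFKL, the liver isoform of phosphofructokinase, was at 48.7, 47.96 and 48.8 FPKM at 10:2 and 41.96, 41.03 and 40.7 at 10:6, and PKM, pyruvate kinase, at 1043, 1067 and 1076 and 962, 977 and 951. SLC2A1, the glucose transporter GLUT1, went from 69.1, 70.7 and 70.99 to 61.1, 62.2 and 63.4. The groups did not overlap for these 3 genes, with differences of -0.23, -0.14 and -0.17 and adjusted p of 0.00139, 0.00649 and 0.0124. GPI, ALDOA and ALDOC, the isomerase and aldolases of the pathway, fell by 0.13, 0.14 and 0.30. All 6 falls were called with the trends removed. PFKL and PKM held without each library in turn. SLC2A1, GPI, ALDOA and ALDOC were lost without replicate 2 of 10:2, and the last 3 also without replicate 3 of 10:6. Of the 6 falls, 2 were also lost without replicate 2 of 10:6 and 1 without replicate 3 of 10:2.

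Lipid synthesis split by gene. Of 34 sterol and fatty acid genes 3 rose (8.82%) and 4 fell (11.8%), beside 4.82% and 2.72% of all genes (median -0.01). FASN, fatty acid synthase, went from 109, 110.3 and 106 to 93.2, 92.98 and 89.6 FPKM (adjusted p = 0.0031), and MVD, an enzyme of the mevalonate pathway, from 84.01, 82.3 and 85.6 to 75.2, 74.1 and 68.3. HMGCS1, GGPS1 and ELOVL6 rose by 0.22, 0.44 and 0.27. FASN and MVD held under trend removal and without each library in turn, and none of the 3 rises under either.

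Mitochondrial genes also split. Of 77 nuclear genes of oxidative phosphorylation 8 rose (10.4%) and 2 fell (2.6%), beside 4.82% and 2.72% of all genes. The median was -0.01, and trend removal gave 1 rise and 6 falls. UQCRC2, a core subunit of complex III, went from 64.3, 65.1 and 65.01 to 77.8, 74.5 and 77.5 FPKM, and CYC1, cytochrome c1 of the same complex, from 245, 251 and 249.6 to 226, 219 and 211. Both held under trend removal and without each library in turn. SDHA, of complex II, fell by 0.18, and lost its call without replicate 2 of 10:2 or 3 of 10:6.

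Of 13 genes encoded in mitochondrial DNA none rose and 3 fell (23.1%, beside 2.72% of all genes), with a median of -0.08. COX2, the mitochondrial gene of cytochrome c oxidase subunit II, was at 8904, 8926 and 9552 FPKM at 10:2 and 7884, 8027 and 7959.9 at 10:6 (adjusted p = 0.00861). CYTB and ND4L fell by 0.10 and 0.12, and both lost their call without any 1 library. ND4L overlaps ND4, so reads of the pair may not be separable. Under quantile normalization the difference of COX2 went to 0 and that of ND4L turned positive. These genes had no GC value and could not be fitted with trend removal.

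Cytosolic ribosomal protein genes rose in 12 of 86 cases (14%, beside 4.82% of all genes) and fell in none (median 0.02). With the trends removed 5 rose and 2 fell. RPL24 went from 584, 553 and 596 to 691, 695 and 691 FPKM and RPL6 from 259, 246 and 252 to 309, 304 and 307, and these 2 held under both checks. Spliceosome genes rose in 12 of 84 cases (14.3%) and fell in 5 (5.95%), beside 4.82% and 2.72% of all genes (median 0.01). With the trends removed 0 rose and 6 fell. HNRNPA1, an RNA-binding splicing repressor, rose by 0.20, with an adjusted p of 0.0519 after trend removal. PRPF8, the core splicing factor of the U5 particle, fell by 0.16, and was called after trend removal but kept its call in 1 leave-out, that of replicate 1 of 10:6.

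Proteasome genes rose in 6 of 45 cases (13.3%) and fell in 3 (6.67%), beside 4.82% and 2.72% of all genes. With the trends removed 0 rose and 3 fell. PSMD1, of the regulatory cap, rose by 0.17, and PSMA7, of the core, fell by 0.13. No proteasome call held without each library in turn. Of 78 mitochondrial ribosomal protein genes 5 rose (6.41%) and 3 fell (3.85%), beside 4.82% and 2.72% of all genes, against 0 and 3 with the trends removed. Nuclear pore and transport genes rose in 3 of 53 cases and fell in 3, against 0 and 7. These were 5.66% each way, beside 4.82% and 2.72% of all genes. Of 42 histone genes HIST1H2BF rose (2.38%) and none fell. Of 215 zinc finger genes of the ZNF family ZNF664 rose by 0.28 (0.465%) and none fell. Both shares were below the 4.82% of all genes. HIST1H2BF has near-identical copies and lost its call with the trends removed (adjusted p = 0.0559). ZNF664 was called with the trends removed and lost its call without replicate 2 of either group or replicate 3 of 10:6.

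Under the naming rule the largest falls among protein-coding genes were smaller than the largest rises. CRYM, a thyroid hormone binding protein, TRMT61A, a tRNA methyltransferase, and PDK2, a kinase that brakes pyruvate dehydrogenase, fell by 0.39, 0.32 and 0.31. ADORA2A, an adenosine receptor, was at 24.7, 24.5 and 24.7 FPKM at 10:2 and 20.5, 19.1 and 19.5 at 10:6, with adjusted p = 0.00299. PABPC1L, a poly(A)-binding protein, was at 17.3, 16.6 and 17.3 and 13.2, 13.8 and 14.4. That the groups did not overlap for these 5 was required by the naming rule. TRMT61A, ADORA2A and PABPC1L held under trend removal and without each library in turn. CRYM was lost without replicate 2 of 10:2 or 2 or 3 of 10:6, and PDK2 without replicate 2 of 10:2 or 3 of 10:6.

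C19orf71 and WBSCR27 had the largest log2 falls under that rule, -0.51 and -0.48, from low levels. C19orf71 was at 5.603, 7.94 and 5.64 at 10:2 and 4.85, 4.28 and 3.38 at 10:6, and WBSCR27, a methyltransferase-like protein, at 6.11, 4.24 and 5.01 and 3.13, 3.97 and 3.01. With the trends removed their adjusted p were 0.0501 and 0.0588, and the calls ended without replicate 2 of 10:2 or 2 or 3 of 10:6 for C19orf71 and without replicate 1 or 3 of either group for WBSCR27. PLPP2, a lipid phosphatase, and CDK10, a cyclin-dependent kinase, fell by 0.25 and 0.27 and held without each library in turn. The rule named these 2 for being called with the trends removed. DUS3L, TRAPPC5, EVPL and TUBGCP6 fell by 0.30, 0.29, 0.29 and 0.28. TRAPPC5 was not called with the trends removed (adjusted p = 0.0752), and each of the 4 lost its call without replicate 3 of 10:6.

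The 14 small RNA genes called with a difference of at least 1 in log2(FPKM + 1) rested on few reads. They were 4 miRNA, 7 snoRNA, 2 tRNA genes and 1 pseudogene of 5S rRNA, with 9 rises and 5 falls, and none had a mean above 7.19 FPKM at 10:6. limma-voom on the recovered reads called 6 of the 14, and 1 of the 14 kept its limma call without each library in turn. This was SNORA5C, a guide RNA of pseudouridylation, at 0.624, 2.16 and 1.104 FPKM at 10:2 and 9.72, 6.67 and 5.18 at 10:6. Most snoRNA and many miRNA genes lie inside other genes, and reads of the host and of the small RNA cannot be told apart in these values.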

How the data were processed

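PolyA RNA of BON-1 cells was measured in 12 libraries of 4 groups, 3 each. The deposited table holds FPKM values per gene that the authors made; the submitters' processing notes name HISAT2, featureCounts and the hg38 build, with versions and settings not given in the sources used here. Whether counting used strand is also not given. FPKM steps gave back whole reads for 99.9738% of 267349 nonzero values (within 1e-07 of a read), 11699281 to 21875522 reads per library.

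Genes that reached 1 FPKM in 3 or more of the 6 compared libraries were tested with limma 3.58.1 (R 4.3.3) on log2(FPKM + 1), which understates changes of low genes, with a variance trend, all 12 libraries sharing 1 estimate of spread and Benjamini-Hochberg adjustment over 12808 genes, two-sided, at 0.05. The procedure was tested on simulated data. Tables were made with pandas 2.3.3 and numpy 2.4.6 under Python 3.11.15, and plots with matplotlib 3.10.9. GC content came from the longest GENCODE 29 transcript, found for 12033 of the genes tested. Positions and sequences came from RefSeq on GRCh38.p14. limma-voom on the recovered reads, run as an alternative, called 1045 genes up and 520 down.

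The genes compared and the 43 gene lists were chosen with earlier results of these data known. Genes were named by rule: among protein-coding genes called whose higher group averaged 5 FPKM or more and whose groups did not overlap, the 12 largest rises and 12 largest falls and, of those called with trends removed, the 6 largest each way; and in each list the 3 tested genes of smallest p. Other list members and genes were named after their values were seen, and some called genes are not reported here. Alternatives were other filters, pseudocounts, scalings and variance models, removal of length and GC trends, thinning, a replicate block and leaving out each library.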

Additional observations from a re-analysis of the deposited data

How the results depend on the processing

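Against 966 calls (617 up, 349 down), fitting the 6 libraries alone gave 298 (199 up, 99 down). Testing all 28087 genes with any value gave 500 (328 up, 172 down). Requiring a difference of at least 1 in log2(FPKM + 1) gave 26 (21 up, 5 down). Removing length and GC trends gave 452 (209 up), and doing so with a replicate block 287 (148 up, 139 down). limma-voom gave 1565 (1045 up). Median-of-ratios rescaling gave 573 falls beside 434 rises, so rises were 43.1% of its calls against 63.9%; quantile normalization gave 51.9% and trend removal 46.2%. Without a variance trend 189 genes fell. Leaving out 1 library gave 220 to 891 calls, 134 to 578 up and 82 to 313 down; the lowest total was without replicate 3 of 10:6. The replicate block gave 590 calls (398 up, 192 down), but the numbers only name the libraries: same-numbered deviations correlated at -0.040, -0.017 and -0.015. The log2 difference of COX2 became 0.00 and that of ND4L 0.017 under quantile normalization. Of 163 called genes named in the text, 96 were called in the 6 libraries alone, 112 with trends removed and 81 to 125 with 1 library left out. The other filters, pseudocount, robust fit, thinning and protein-coding genes alone kept the total within 1.5 times. Where a count moved, the cause was not tested.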

Other observations

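Outside the gene lists, 38 protein-coding genes rose and 36 fell that were also called with length and GC trends removed, in the 6 libraries alone and without each library in turn; the ones named here were chosen after their values were seen. KIAA0101, a partner of the replication clamp PCNA, was at 38.99, 39.6 and 38.3 FPKM at 10:2 and 53.3, 52.9 and 51.3 at 10:6 (limma adjusted p = 1.98e-05). AGT, angiotensinogen, was at 23.1, 21.5 and 21.3 and 30.7, 31.7 and 29.7, a difference of 0.47 ± 0.0528 (SE) in log2(FPKM + 1). No library of either gene overlapped between the groups. HMGB1, HMGB2 and HMGB3, chromatin proteins of 1 family with many processed pseudogenes that could share their reads, rose by 0.38, 0.21 and 0.26. CDKN1B, the cell cycle inhibitor p27, rose from 19.3, 19.8 and 18.9 to 23.02, 24.4 and 24.8 FPKM, beside the rise of CDKN1A given above. NPM1, a nucleolar chaperone, and STMN1, a tubulin-binding protein, rose by 0.25 and 0.25, and IL13RA1, an interleukin receptor chain, by 0.38.

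Among the falls were PGD and TKT, enzymes of the pentose phosphate pathway. PGD, a dehydrogenase that yields NADPH, was at 100.5, 100.4 and 99.5 FPKM at 10:2 and 90.8, 89.9 and 88.4 at 10:6 (limma adjusted p = 0.0055), and TKT, transketolase, at 201, 212 and 206 and 186, 187 and 183. All 3 libraries of 10:6 lay below all 3 of 10:2 for each gene, with log2 differences of -0.16 and -0.15. IDH3G, of the citric acid cycle, fell by 0.27. The tubulin genes TUBA4A, TUBA1B and TUBG1 fell by 0.23, 0.15 and 0.21; alpha tubulin genes are close copies that may share reads.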
